A study of Arabidopsis thaliana with 6 samples.

Results

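The 4 genes described here, NDB2, AT2G21640, AT5G09570 and AT2G41730, belong to the mitochondrial dysfunction response of Arabidopsis, the set of nuclear genes that plants switch on when respiration in mitochondria is disturbed. They were chosen by name, with earlier results of these data known. They were read from probe sets that the platform's annotation assigns to exactly 1 of these genes. All 4 have 1 such probe set, among the 13286 genes that have one on the array. Transcripts were measured in whole seedlings of the accession Col-0 (seed stock N1093), either fumigated for 6 h with 500 ppb ozone (3 arrays) or for 6 h with scrubbed air as the control (3 arrays). Both groups were grown on 0.8% agar with MS medium and vitamins, at 20 °C with days of 16 h light and nights of 8 h, were fumigated in their plates at developmental stage 1.04, and were extracted straight afterwards. Each sample was hybridized to 1 Affymetrix ATH1 array, and the values are MAS5 signals, a linear measure of brightness that combines the probes of a probe set.

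Mitochondria report trouble to the nucleus by what is called retrograde signalling. In Arabidopsis the membrane-bound transcription factors ANAC013 and ANAC017 are released from the endoplasmic reticulum when mitochondria are impaired, and they activate a common set of target genes. That set includes a respiratory bypass made of alternative oxidase and type II NAD(P)H dehydrogenases, which passes electrons to oxygen without pumping protons. It also holds small mitochondrial proteins of little known function, whose transcripts are used as markers of the response. Ozone enters leaves through stomata and forms reactive oxygen species in the cell wall space.

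Of the 4 genes, NDB2, AT2G41730 and AT2G21640 rose with ozone and AT5G09570 did not pass the test. On the array as a whole 28.0% of the tested probe sets changed in either direction and 13.0% rose, so a rise as such was common. Every ozone array lay above every control array for the same 3 genes, which held for 18.2% of the tested probe sets. All 4 passed the filter on dim probe sets (a mean log2 signal below that of a signal of 31.2), but AT2G41730 passed it only through its ozone arrays. Its presence among the tested genes therefore already depended on its rise. In the fit without the filter all 4 are tested whatever their level. There the median log2 fold change of the 4 genes was 2.36, against -0.17 over all 22746 probe sets. The 4 genes were chosen with earlier results of these data known, so this contrast is not an independent test.

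NDB2 encodes a type II NAD(P)H dehydrogenase on the outer face of the inner mitochondrial membrane, which feeds electrons from cytosolic NADH into the ubiquinone pool. Its signal was 654.9, 747.0 and 542.0 on the ozone arrays, against 69.4, 81.2 and 69.9 on the control arrays. The 2 groups were far apart, with the lowest ozone array lying 2.74 above the highest control array on the log2 scale. The log2 fold change was 3.13 (SE 0.171, 95% interval 2.74 to 3.53, limma adjusted p = 4.25e-05), or 8.76-fold. Of the 13648 tested probe sets, 133 had a higher log2 fold change. NDB2 was also the steadiest of the 3 rising genes, since its highest ozone signal was 1.38 times its lowest.

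AT2G41730 encodes a small uncharacterised protein. Its signal was 176.1, 359.7 and 77.9 on the ozone arrays, against 19.5, 21.2 and 16.9 on the control arrays. The control arrays were dim and close together, while the ozone arrays differed among themselves by 4.62 times between the lowest, replicate 3, and the highest, replicate 2. The log2 fold change was 3.15 (SE 0.484, 95% interval 2.04 to 4.27, limma adjusted p = 0.00295), or 8.91-fold, with 128 tested probe sets above it. In the fit without the filter the limma adjusted p was 0.00577. Because the control signals were so low, the size of the fold depended on how dim values were treated, and it was 2.43 on the log2 scale with 16 added to every signal and 1.55 with 64 added. The probe set carries the suffix _x_at, Affymetrix's mark for probes that may also match other transcripts, and how far related sequences add to this signal was not tested.

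AT2G21640, known as UPOX for its upregulation by oxidative stress, encodes a mitochondrial protein of unknown function that serves as a marker of oxidative stress. Its signal was 95.6, 167.6 and 67.9 on the ozone arrays, against 33.6, 40.1 and 29.6 on the control arrays. The groups did not overlap, but the gap was narrower than for NDB2, with the lowest ozone array 0.76 above the highest control array on the log2 scale. The log2 fold change was 1.59 (SE 0.325, 95% interval 0.84 to 2.34, limma adjusted p = 0.00944), or 3.01-fold, and 662 tested probe sets had a higher one. It was 1.25 with 16 added to every signal and 0.79 with 64 added, where the log2 fold change of NDB2 was 2.88 and 2.36.

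AT5G09570 encodes a small mitochondrial protein with paired cysteine motifs, known as AT12CYS-2, whose transcript is induced by several treatments that block respiration. Its signal was 38.5, 36.3 and 47.9 on the ozone arrays, against 38.1, 31.3 and 44.9 on the control arrays. The groups overlapped, and the ozone arrays held the highest signal and the control arrays the lowest. The log2 fold change was 0.11 (SE 0.218, limma adjusted p = 0.748), and its 95% interval ran from -0.40 to 0.61. That interval stops short of the response of AT2G21640 (interval from 0.84) and of NDB2 (from 2.74). The signals of AT5G09570 were dim on all arrays, not far above the filter level of 31.2. How far dim signals held down its measured fold was not tested. A change within the interval was not detectable with 3 arrays a group, and the sign turned without ozone replicate 3 (-0.01) or control replicate 2 (-0.03).

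**Figure D1:**
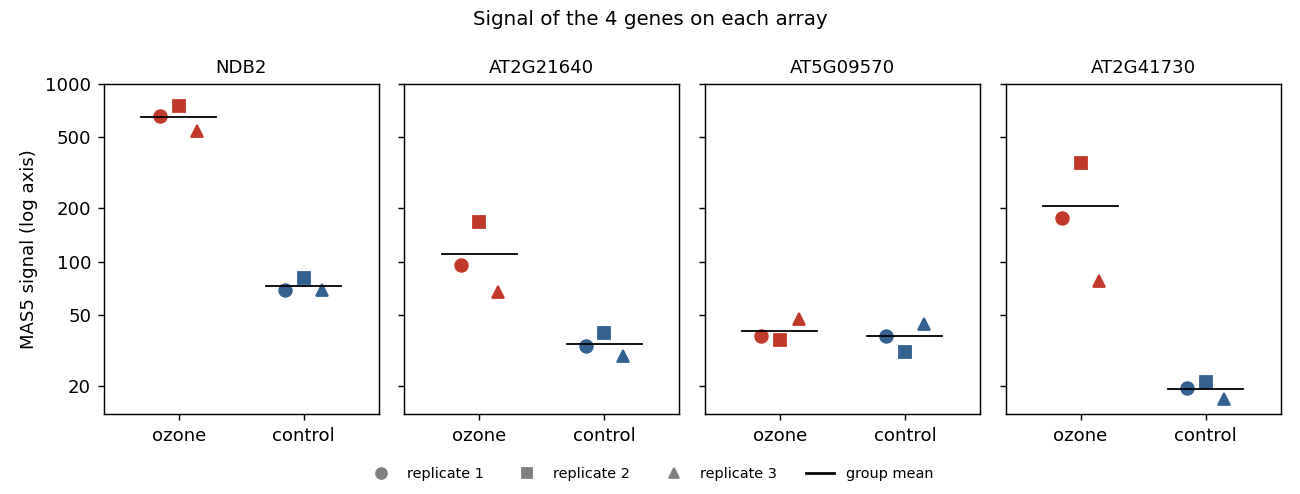
MAS5 signal (log axis) of the 4 genes on each of the 3 ozone and 3 control arrays, with marker shapes for replicates and a line at the group mean. NDB2, AT2G21640 and AT2G41730 sit higher on every ozone array than on any control array, AT2G41730 with the widest spread among ozone arrays (77.9 to 359.7), and the groups of AT5G09570 overlap.

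**Figure D2:**
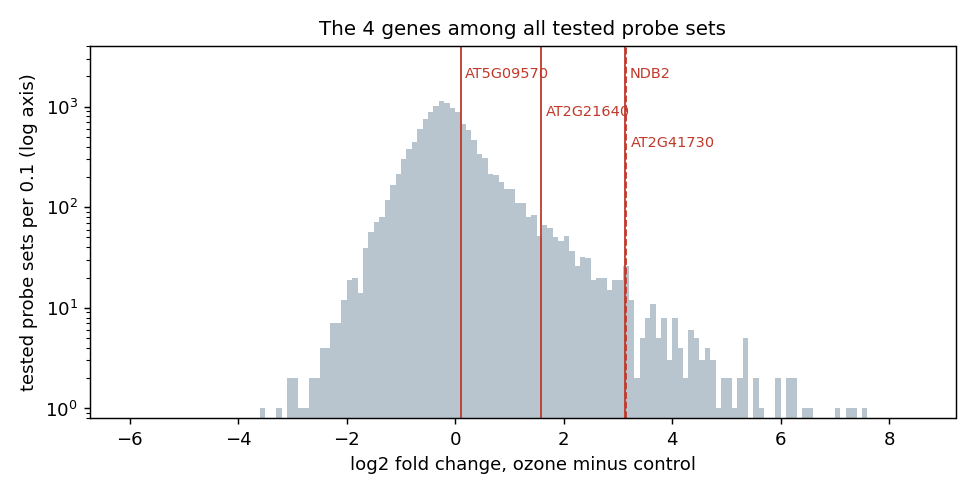
Histogram of the log2 fold change (ozone minus control) of all 13648 tested probe sets, counted per 0.1 on a log axis, with vertical lines at the 4 genes. NDB2 and AT2G41730 (dashed) lie together in the upper tail at 3.13 and 3.15, AT2G21640 lies at 1.59 and AT5G09570 at 0.11.

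The 4 genes were also compared with each other by the difference of their log2 signals within each array, which asks whether one responded more than another. Over the 6 pairs, the exact two-sided permutation test over 3 against 3 arrays cannot give a p below 0.1. NDB2 responded by 1.54 more than AT2G21640 on the log2 scale, with all ozone arrays (2.16 to 3.00) above all control arrays (1.02 to 1.24), and the exact p of 0.1 became 0.12 after Benjamini-Hochberg adjustment over the 6 pairs. NDB2 responded by 3.02 more and AT2G21640 by 1.48 more than AT5G09570, both with the same exact p and no overlap of the groups. Against AT2G41730 the difference was -1.56 for AT2G21640 and -3.05 for AT5G09570, with the same exact p. NDB2 and AT2G41730 differed by -0.02 (exact p = 0.9), with the ozone arrays from 1.05 to 2.80 on both sides of the control arrays at 1.83 to 2.05. The sign of that last difference changed with 16 or 64 added to every signal (0.45 and 0.81). The other 5 differences kept their sign under both offsets. With 64 added the 3 pairs without NDB2 had smaller differences, of 0.75 for AT2G21640 minus AT5G09570, -0.76 for AT2G21640 minus AT2G41730 and -1.51 for AT5G09570 minus AT2G41730. NDB2 minus AT5G09570 was smaller too, at 2.32, while NDB2 minus AT2G21640 was 1.58.

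The ozone arrays stood in a common pattern in the 3 rising genes. Replicate 2 was the highest and replicate 3 the lowest ozone array for NDB2, AT2G21640 and AT2G41730, whereas for AT5G09570 replicate 3 was the highest and replicate 2 the lowest. Among the 1777 probe sets that rose on the array, replicate 2 was the highest ozone array in 44.9% and replicate 3 the lowest in 60.6%, so the low place of replicate 3 was common to most rising probe sets. Between the arrays that share a replicate number, the log2 difference of NDB2 was 3.24, 3.20 and 2.96 for numbers 1, 2 and 3. It was 3.17, 4.08 and 2.20 for AT2G41730, 1.51, 2.06 and 1.198 for AT2G21640, and 0.02, 0.21 and 0.09 for AT5G09570. Without ozone replicate 2 the log2 fold change was 3.02 for NDB2, 2.62 for AT2G41730 and 1.24 for AT2G21640, and all 3 passed (limma adjusted p = 0.00072, 0.00677 and 0.0227).

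**Figure D3:**
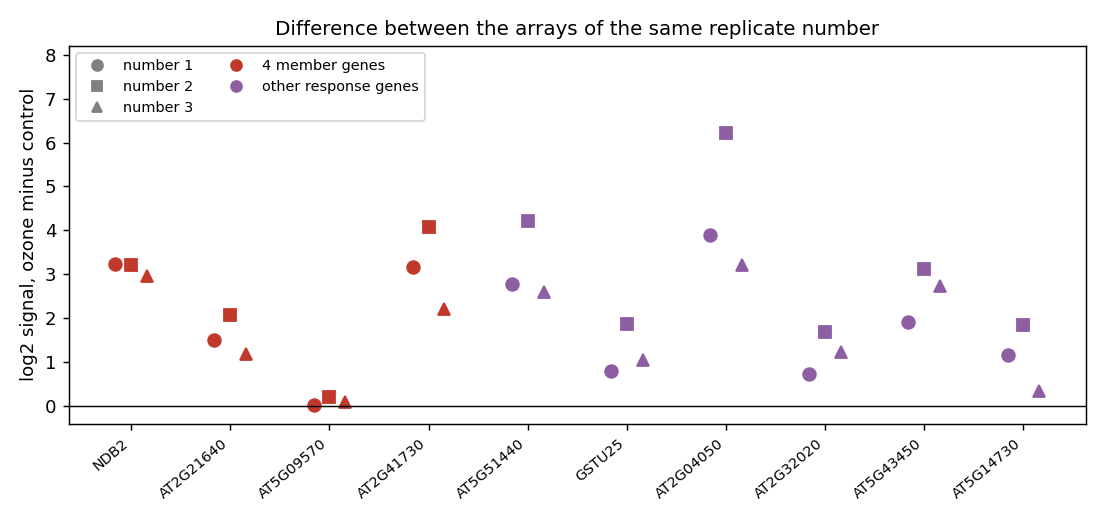
Difference of log2 signal, ozone minus control, between the arrays of the same replicate number, for the 4 genes and for 6 other genes of the response, with marker shapes for the numbers. NDB2 has nearly the same difference in all 3 (2.96 to 3.24), AT2G41730 ranges from 2.20 to 4.08, and AT5G09570 stays between 0.02 and 0.21.

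The alternative respiratory enzymes were read next, since NDB2 is one of them. Of the other 13 genes for alternative oxidases, type II NAD(P)H dehydrogenases and uncoupling proteins, 4 had a probe set that names them alone, all of them NAD(P)H dehydrogenases, and the alternative oxidases, AOX1A among them, were not analysed here. Of these 4, NDB1 and NDC1 were bright enough to test, and 0 changed by limma, with 0 of the 4 at an unadjusted p under 0.05, with or without the filter. Over all tested probe sets 28.0% changed, so a count of 0 among so few genes says little. NDB1, an external dehydrogenase that prefers NADPH, had 56.8, 53.8 and 65.8 on the ozone arrays, against 69.8, 46.1 and 57.6 on the control arrays (log2 fold change 0.04, 95% interval -0.45 to 0.52). NDC1, which is found in mitochondria and in plastids, had 69.9, 128.5 and 136.3 on the ozone arrays, against 60.5, 150.1 and 137.7 on the control arrays. For NDC1 replicate 1 was the low array in both groups, and the log2 fold change was -0.01 with a wide 95% interval of -0.92 to 0.90. NDB3 and NDB4 fell below the filter. NDB3 had 24.8 to 36.8 on the ozone arrays, against 25.9 to 36.6 on the control arrays, and NDB4 had 3.5 to 5.7 on the ozone arrays, against 1.9 to 4.1 on the control arrays. Among the external dehydrogenases, NDB1 to NDB4, only the groups of NDB2 did not overlap. Every ozone array lay above every control array in 18.2% of all tested probe sets, so this alone was not rare. The 95% intervals of NDB1, NDB3 (-0.79 to 0.47) and NDB4 (-0.55 to 1.68) lay below that of NDB2. NDB3 and NDB4 were dim, NDB4 with signals close to 0, so NDB1 was the only comparison in this family bright enough to test. The differences between these dehydrogenases were not tested.

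Other genes of the mitochondrial dysfunction response rose too. Of a list of 15, 6 had a probe set of their own, and in the fit without the filter on dim probe sets all 6 rose, where 8.34% of 22746 probe sets did. Their limma adjusted p-values in that fit were 0.00144 to 0.0379, and their median log2 fold change was 1.91, against -0.17 over all probe sets. The list was chosen with earlier results of these data known, so these comparisons with all probe sets are not independent evidence of a response. With the filter 5 of the 6 were tested and 5 rose. AT5G51440 and AT2G32020 passed the filter only through their ozone arrays and AT2G04050 fell below it, so nothing is read from the filtered count.

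AT5G51440, a small heat shock protein of mitochondria, had 79.8, 164.7 and 100.2 on the ozone arrays, against 11.7, 8.9 and 16.5 on the control arrays. Its difference of 3.19 on the log2 scale (SE 0.333, limma adjusted p = 0.000552, or 0.00144 without the filter) was close to those of NDB2 and AT2G41730 without an offset. Its control signals were dim, and the value was 2.16 with 16 added to every signal and 1.201 with 64 added. AT5G43450, a 2-oxoglutarate-dependent oxygenase, had 290.8, 324.2 and 166.7 on the ozone arrays, against 77.6, 37.0 and 25.0 on the control arrays, which is 2.59 on the log2 scale (SE 0.425, limma adjusted p = 0.00391). GSTU25, a glutathione S-transferase that conjugates reactive compounds, had 354.7, 388.6 and 398.6 on the ozone arrays, against 205.1, 106.4 and 192.9 on the control arrays, a rise of 2.35-fold. These 3 genes passed with every array left out in turn.

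AT2G32020, of the GNAT acetyltransferase family, rose by a log2 fold change of 1.22 (limma adjusted p = 0.0182, or 0.0378 without the filter). The value of 0.0182 became 0.0814 without ozone replicate 2, 0.0615 without control replicate 2 and 0.0682 without control replicate 3. AT5G14730, an uncharacterised gene, rose by 1.12 (limma adjusted p = 0.0235), and lost the call without ozone replicate 1 (0.0604), ozone replicate 2 (0.0918) or control replicate 2 (0.0822). AT2G04050, a MATE family transporter, had the widest difference and the weakest footing in level. Its signal was 17.8, 82.0 and 14.9 on the ozone arrays, against 1.2, 1.1 and 1.6 on the control arrays. It was below the filter, and its log2 fold change of 4.44 in the fit without the filter (95% interval 2.86 to 6.03) rests on control signals close to 0. Ozone replicate 2 was the highest ozone array in 5 of the 6 genes, as in the 3 rising members.

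Of 9 listed twin-cysteine and carrier proteins of the intermembrane space, 2 had a probe set that names them alone. AT5G64400, known as AT12CYS-1, is a relative of AT5G09570. It had 2212.1, 1477.3 and 1356.2 on the ozone arrays, against 1855.6, 1039.5 and 1418.8 on the control arrays, and did not pass (log2 fold change 0.23, 95% interval -0.39 to 0.86). AT1G53030, a copper chaperone of cytochrome c oxidase, had 75.1, 76.1 and 57.5 on the ozone arrays, against 43.7, 23.2 and 26.6 on the control arrays. It rose by a log2 fold change of 1.202 (limma adjusted p = 0.0143, or 0.0265 without the filter). Its control arrays were on average below the filter, so it passed the filter only through its ozone arrays. In the fit with the filter its adjusted p was 0.0636 without ozone replicate 2, 0.0540 without control replicate 2 and 0.0565 without control replicate 3. The 13 listed regulators of retrograde signalling, ANAC013 and ANAC017 among them, and the 11 listed mitochondrial chaperones, proteases and prohibitins had 0 probe sets that name them alone, and were not analysed here.

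**Figure D4:**
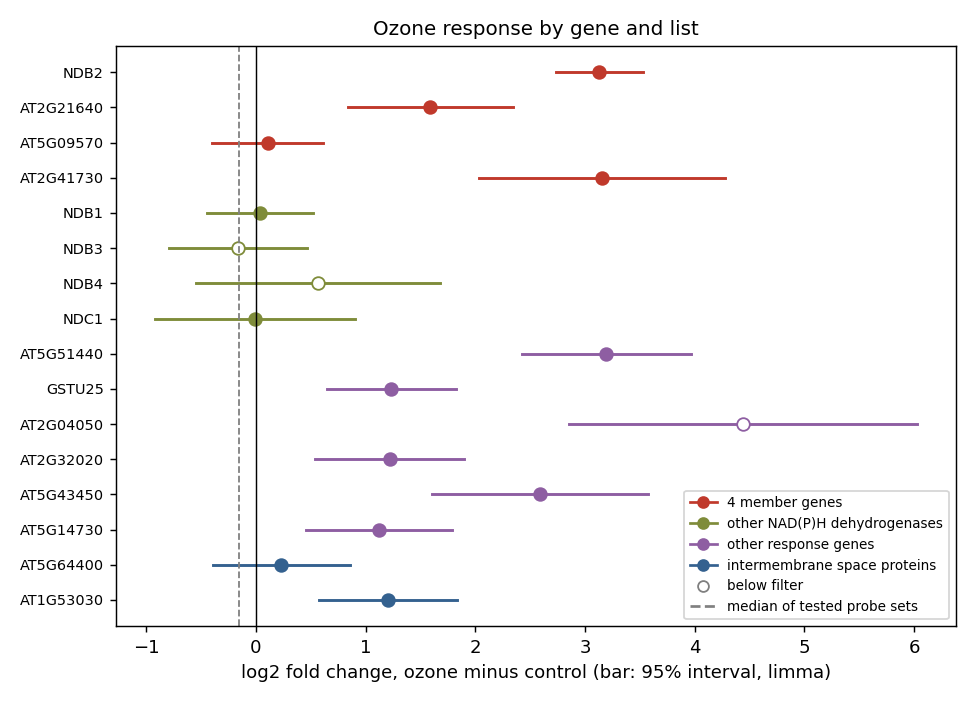
Log2 fold change (ozone minus control) with its 95% interval from limma for the 4 genes and the measured genes of 3 related lists; open circles are genes below the filter, taken from the fit without it, and the dashed line is the median of all tested probe sets (-0.15). All 6 other response genes lie above 1, while the other NAD(P)H dehydrogenases and AT5G09570 have intervals that include 0.

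The genes whose profile over the 6 arrays was most like that of NDB2 were sought among 7335 tested probe sets with 1 gene, by the root mean square difference of log2 signals centred on the control mean. The nearest was UGT87A2, a UDP-glycosyltransferase, at a difference of 0.110, with 686.6, 624.9 and 521.9 on the ozone arrays, against 67.1, 83.3 and 63.4 on the control arrays. It was followed by AT4G01870 (0.130), AT3G05500 of the rubber elongation factor family, which coats lipid droplets (0.151), AT2G28400 (0.197) and AT4G22530 (0.215). Their log2 fold changes were 3.10 to 3.11, close to the 3.13 of NDB2 as the measure requires. AT2G28400 (27.9 to 28.4 on the control arrays) and AT4G22530 (20.0 to 24.7) passed the filter only through their ozone arrays. The search therefore took in dim genes of this kind only where they rose. By the same measure AT2G41730 came at place 60 (0.508), AT2G21640 at place 270 (1.12) and AT5G09570 at place 2270 (2.16), so none of the 3 was among the 5 profiles nearest to NDB2.

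The samples are whole seedlings, in which fewer cells of a type and less RNA per cell cannot be told apart. Some markers of tissues fell with ozone while others did not pass, and their part in the results above was not tested. The summed signal of 4 leaf photosynthesis markers was 5283 to 7244 on the ozone arrays, against 8119 to 11989 on the control arrays, and 2 of the 4 fell (4 with the replicate number as a block). That of 3 root markers was 1857 to 2478 on the ozone arrays, against 2235 to 3440 on the control arrays, and 1 of the 3 fell (2 with the block). Most of this sum was PYK10 (1805.8 to 2419.8 on the ozone arrays), which did not pass without the block (limma adjusted p = 0.315). The marker that fell was EXPA7, with 21.5 to 28.2 on the ozone arrays, against 44.3 to 47.6 on the control arrays. EXPA7 and EXPA18 (21.0 to 30.1 on the ozone arrays) passed the filter only through their control arrays. That of 2 guard cell markers was 224 to 378 on the ozone arrays, against 384 to 432 on the control arrays, with 0 changed by limma (0 at an unadjusted p under 0.05, and 1 lower with the block). None of these 9 markers was at 0 on any array. Falls were common on the array as a whole, with 2039 of the 13648 tested probe sets lower, and 4097 with the block. Of 4 reference genes 0 changed by limma (0 at an unadjusted p under 0.05), with log2 fold changes of 0.09 for PEX4, -0.13 for AT4G34270, -0.21 for AT2G28390 and -0.28 for GAPC2, and the block called GAPC2 lower.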

How the data were processed

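The authors deposited 1 MAS5 signal intensity per probe set and array on a linear scale, per the submitters' processing notes, where MAS5 stands without a version. The mean signal, trimmed by 2% at either end, was 100.0 on all 6 arrays, and medians were 41.7 to 49.5. Detection calls were not used here. The number of arrays limits the precision.

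In each array zeros (95 in all) were replaced by its smallest positive signal, and signals were taken to log2. The 64 control probe sets and those below the 40th percentile of mean log2 signal were left out, which kept 13648. Ozone was compared with control in limma 3.58.1 (R 4.3.3; lmFit, eBayes with a trend, two-sided, Benjamini-Hochberg over all tested probe sets, threshold 0.05). Genes below the filter were taken from the fit without it. The code was tested on simulated data. Nothing in the labels says that replicates are separate cultures, so p-values cover only the spread between these samples, possibly a technical one.

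Gene names come from the platform annotation (13513 with 1 gene, 503 with several, 8730 unnamed here), with 13436 matched to a RefSeq TAIR10.1 locus, used for names only. Names such as UPOX and roles are background knowledge. The members and lists were chosen with earlier results of these data known. Named genes are the 4 members, all measured genes of the related lists and the 5 profiles nearest to NDB2. Titles number replicates 1 to 3 in both groups, and deviations from the group means of same-numbered arrays correlated across probe sets at r = 0.747, 0.374 and 0.439, all above the bound of 0.1 for reading the number as a pairing. Ozone replicate 2 with control replicate 3 (r = 0.368) and ozone replicate 3 with control replicate 2 (0.412) correlated about as well, so the shared deviation mainly sets replicate 1 apart and does not show that numbers 2 and 3 are separate pairs. Results with that block stand beside those whose call it changes. A search for the mitochondrial dysfunction motif in promoters was planned and not run, since promoter sequences were not used here.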

Additional observations from a re-analysis of the deposited data

How the results depend on the processing

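The rises of NDB2, AT2G21640 and AT2G41730 kept their direction and passed under every alternative in which they were tested: quantile normalization, median centring, 16 or 64 added, no filter, eBayes without a trend or robust, the replicate number as a block, each array left out, and, chosen after seeing the data, both arrays numbered 1 left out. Their limma adjusted p reached at most 0.000720, 0.0380 and 0.0131. With a filter at the 60th percentile NDB2 alone of the 4 was tested. Leaving out 1 array gave log2 fold changes of 3.02 to 3.25 for NDB2, 1.24 to 1.89 for AT2G21640, 2.62 to 3.72 for AT2G41730 and -0.027 to 0.23 for AT5G09570, which turned to -0.01 without ozone replicate 3 and -0.027 without control replicate 2.

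The number of changed probe sets was 3816, against 6699 with the replicate block and 2246 to 3690 with 1 array left out (2246 without ozone replicate 2, 2408 without control replicate 2, 2273 without control replicate 3). The block changed no call among the 4 members and the related genes tested. Of the other response genes 6 of 6 rose without the filter, a count that was not repeated with an array left out or an offset added. The filtered count of 5, which partly depends on the rise itself, was 3 with the filter at the 60th percentile and 3 to 5 with 1 array left out (3 without ozone replicate 2 or control replicate 2). Of the intermembrane space genes 1 rose, against 0 with that filter and 0 to 1 with 1 array left out. The fewer calls under the stricter filter follow from genes no longer tested; the cause of the others was not tested.

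The log2 fold changes near 0 changed sign: NDB1 to -0.04 without ozone replicate 3 and -0.11 without control replicate 2, and NDC1 to 0.0056 with quantile normalization, 0.065 with median centring, 0.30 without ozone replicate 1, 0.23 without control replicate 2 and 0.17 without control replicate 3. With 1 array left out NDB1 ranged from -0.11 to 0.19 and NDC1 from -0.43 to 0.30. The difference between NDB2 and AT2G41730 (-0.02) turned to 0.45 and 0.81 with 16 or 64 added, 0.41 without ozone replicate 2 and 0.03 without control replicate 3, and ranged from -0.46 to 0.41 with 1 array left out. Dim signals limit the folds of genes with low control signals: with 64 added, AT2G32020 had a log2 fold change of 0.42 against 1.22 and AT1G53030 0.49 against 1.202.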
